A study of Mus musculus with 6 samples.

Results

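The genes described are 9 components of the pathway by which leukemia inhibitory factor (LIF) acts on mouse embryonic stem cells: Lif, Lifr, Il6st, Jak1, Stat3, Socs3, Pim1, Pim3 and Gbx2. Every probe that the platform's annotation table assigns to 1 of them was taken, which gave 21 of the 45281 probes of the array. Expression was measured on Illumina bead arrays, 1 per sample, in 3 samples transfected with an shRNA vector against the chromatin remodeller Chd9 (shChd9) and 3 with a control transfection, all of them mouse ES cells of unstated genotype. The cells were grown in 15% serum with a saturating amount of LIF on feeder fibroblasts blocked with mitomycin C, and puromycin was applied for 48 h from 24 h after electroporation. Whether the replicates of a group are separate cultures is not stated, so the p-values cover the scatter among these samples alone, and that scatter may be technical. Replicate numbers here only follow the order of the samples, since the labels give none and tie no shChd9 sample to a control sample. Arrays of a group lay on neighbouring positions of 1 slide, so that position and group cannot be told apart.

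LIF is a secreted cytokine that feeder fibroblasts supply to stem cells and that is also added to the medium, as here. It joins 2 membrane proteins, its own receptor Lifr and the shared subunit gp130 encoded by Il6st, and the kinase Jak1 bound to them then phosphorylates the transcription factor Stat3. Stat3 enters the nucleus and activates genes that hold mouse stem cells in self-renewal, among them the feedback inhibitor Socs3, the kinases Pim1 and Pim3 and the homeobox factor Gbx2.

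The samples carried both kinds of cells. All 10 listed stem cell markers, Pou5f1, Nanog and Esrrb among them, were detected on every array. Of 24 listed feeder fibroblast markers 18 passed the filter on detection. The 6 that did not were Col1a2, Col3a1, Col5a2, Postn, Fap and Cdh11. A probe counted as detected where its deposited detection p-value was under 0.05, and testing required detection on 3 or more of the 6 arrays. Levels are background-corrected and quantile-normalized log2 intensities, on which the dimmest detected probe of an array stood between 4.80 and 4.86. Between 39.2% and 40.8% of probes were detected per array, and levels correlated across all probes with r from 0.983 to 0.990 between any pair of arrays. The targeted gene Chd9 had 3 tested probes, of which 2 were lower and 1 higher in shChd9 cells, none with a call. It measured 6.51 ± 0.21 in shChd9 cells and 7.62 ± 0.07 in control cells on probe ILMN_1235114 (mean ± SD, n = 3 each), which is 46.3% of the control level, with an adjusted p of 0.540 in limma over all probes. On ILMN_2697954 the level was 45.8% of control (limma, adjusted p = 0.540). ILMN_1226311, near the detection limit and missed on 1 control array, measured 5.32 ± 0.35 in shChd9 cells and 4.97 ± 0.17 in control cells, or 127% of control (limma, adjusted p = 0.925).

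None of the 9 genes passed the test between shChd9 and control cells, from the ligand through the receptors and kinase to the targets. Of the 21 probes, 14 passed the filter on detection and 7 were too dim to be tested, 4 of these being detected on no array. With an adjusted p under 0.05 as threshold, 0 of the 14 were called by limma, against a background of 0 of 17719 probes (0%), and the smallest adjusted p among the 14 was 0.922. At an unadjusted p under 0.05 limma found 1 of the 14, against 5.32% of all probes tested. The log2 fold changes of shChd9 over control ran from -0.48 to 0.43, with 6 positive and 8 negative and a median of -0.05, against -0.0037 for all probes tested. In each of the 14 probes the range within at least 1 group was wider than the difference between the group means. The share of all tested probes for which this holds was not computed, so it does not set the 14 apart. For Gbx2 and Stat3 probe ILMN_2698046 both groups fell from the first to the third array, which is part of that range. For 11 of the 14 the 95% interval of the change lay within 2-fold in either direction.

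**Figure D1:**
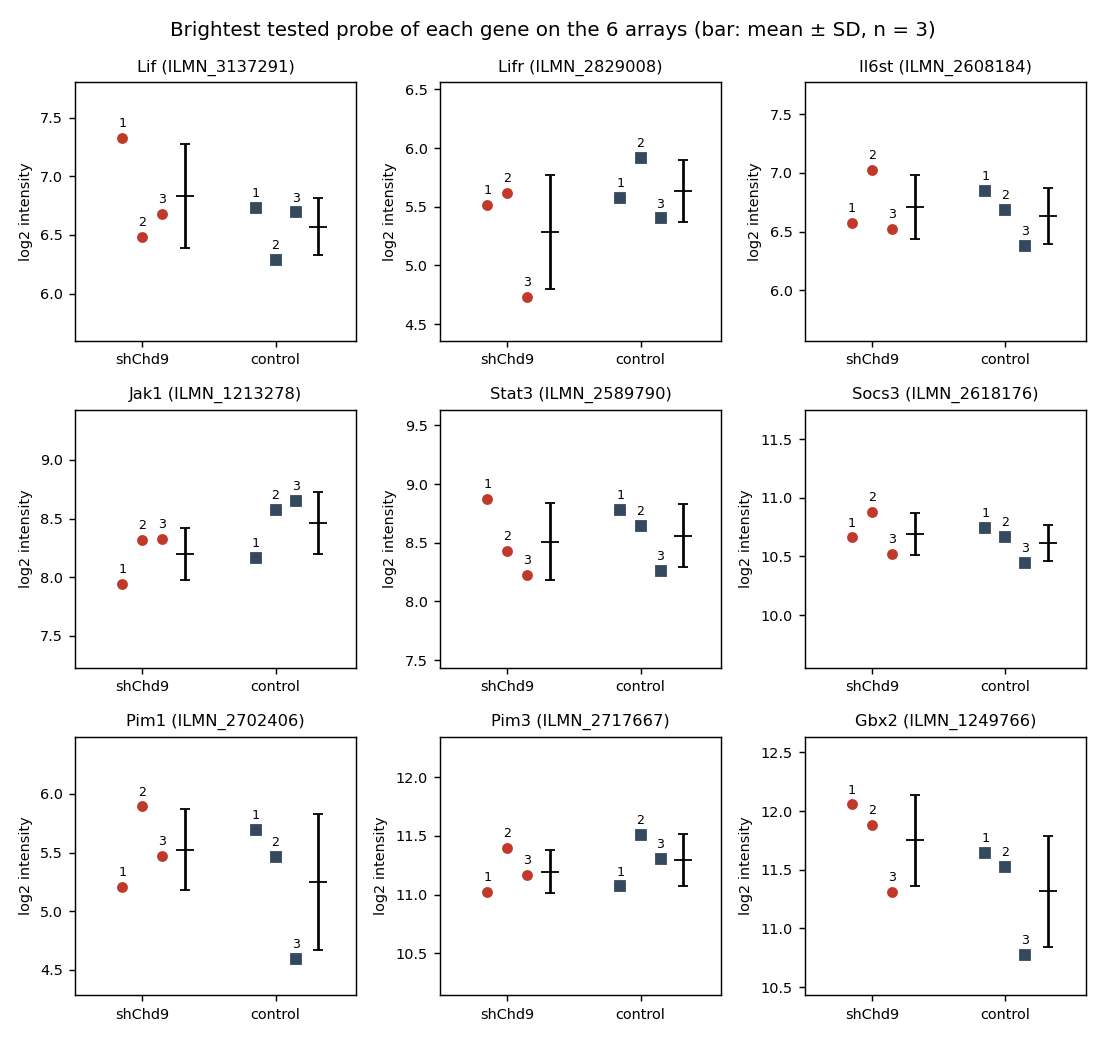
Log2 intensity of the brightest tested probe of each gene on each array, shChd9 cells (red circles) left and control cells (dark squares) right, with replicate numbers as names and the mean ± SD (n = 3) beside the points. Every panel spans the same range of log2 units around its own mean, and the 2 groups overlap in each of the 9 panels.

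The ligand Lif was tested on 2 of its 5 probes, both assigned to the same RefSeq transcript, and neither passed the test. In RNA from a mixed culture of stem cells and feeders, fewer cells of a type and less of a transcript per cell cannot be told apart. Probe ILMN_3137291 measured 7.33, 6.48 and 6.68 on the shChd9 arrays, against 6.73, 6.29 and 6.69 on the control arrays. The first shChd9 array was the highest and the second control array the lowest, and the groups overlapped. The log2 fold change was 0.26 ± 0.24 (SE), or 1.20-fold with a 95% interval of 0.82 to 1.74 (limma, adjusted p = 0.949). Probe ILMN_3137287 measured 6.84, 6.13 and 6.30 in shChd9 cells, against 6.64, 5.54 and 6.16 in control cells, which gave 0.31 ± 0.29 (limma, adjusted p = 0.949). The same arrays were highest and lowest on it. Without the first shChd9 array the 2 values were 0.01 and 0.10, and without the second control array 0.12 and 0.02. With no background correction they were 0.15 and 0.13. The other 3 Lif probes, assigned to another RefSeq transcript, stayed near background: 2 were detected on no array and ILMN_1234792 on 2 control arrays only, at 4.60 ± 0.23 in shChd9 and 4.76 ± 0.41 in control cells.

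On the receptor side, Lifr was near the detection limit, with negative but uncalled changes on its 2 tested probes, and Il6st was detected on every array. Lifr probe ILMN_2829015 measured 4.52, 4.83 and 4.78 in shChd9 cells, of which 1 array detected it, against 5.35, 5.18 and 4.86 in control cells, where all did. It was the 1 tested probe of the 14 whose groups did not overlap, against 10.3% of all probes tested and 5.77% lower without overlap, and it passed the detection filter through its control arrays. Its log2 fold change was -0.42 ± 0.18, with an interval of -0.83 to -0.01 and an adjusted p of 0.922 (limma).

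Without background correction the same probe gave -0.13. Probe ILMN_2829008 measured 5.51, 5.62 and 4.73 in shChd9 cells, against 5.58, 5.92 and 5.40 in control cells, or -0.34 ± 0.25 (limma, adjusted p = 0.936). Its low shChd9 value came from the third array, without which the value was -0.07. The dimmest Lifr probe, ILMN_1242960, was detected on 1 array of each group and was not tested, at 4.82 ± 0.21 in shChd9 and 4.62 ± 0.30 in control cells.

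Il6st, the signal-transducing subunit shared by the IL-6 family of cytokines, measured 6.58, 7.02 and 6.52 on probe ILMN_2608184 in shChd9 cells, against 6.85, 6.69 and 6.38 in control cells. Both groups covered nearly the same range. The log2 fold change was 0.07 ± 0.20 (limma, adjusted p = 0.983), or 1.05-fold with an interval of 0.77 to 1.43. Its second probe was detected on no array.

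The kinase Jak1 and the transcription factor Stat3 were detected on every array, and neither passed the test. Jak1 probe ILMN_1213278 measured 7.94, 8.32 and 8.33 in shChd9 cells, against 8.16, 8.58 and 8.65 in control cells. The first array of each group was its lowest, and the log2 fold change was -0.27 ± 0.19 (limma, adjusted p = 0.936). The interval, -0.70 to 0.17, does not reach a 2-fold change. With 1 array left out the change ran from -0.41 to -0.14, the smallest in size being that without the first shChd9 array. Both groups rose from the first to the third array, so that leaving out 1 array also unbalances them. The other 2 Jak1 probes were too dim to be tested.

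Stat3 has 3 probes, none of which passed, and no test compared them with each other. ILMN_2589790 measured 8.87, 8.43 and 8.23 in shChd9 cells, against 8.78, 8.65 and 8.26 in control cells, a change of -0.05 ± 0.22. ILMN_3096144, assigned to a different RefSeq transcript, measured 7.26, 7.32 and 7.64 in shChd9 cells, against 7.59, 7.56 and 7.23 in control cells, a change of -0.06 ± 0.18. On both probes the groups overlapped almost wholly, and under median scaling in place of quantile normalization the changes were 0.0010 and 0.0031. ILMN_2698046, assigned to the transcript of the first probe, measured 8.63, 8.35 and 7.57 in shChd9 cells, against 9.08, 8.74 and 8.09 in control cells. That gave -0.45 ± 0.32, with an interval of -1.16 to 0.26 (limma, adjusted p = 0.932). Without the third shChd9 array the change was -0.15, without the first control array -0.23, and without the third control array -0.73. The third array was the lowest in both groups, 1.06 below the highest in shChd9 cells. Because both groups fell from the first to the third array, leaving out 1 array also unbalances them along that order. The spread of these values is therefore not a measure of the difference between groups alone. The position of each probe within its transcript was not analysed here.

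**Figure D2:**
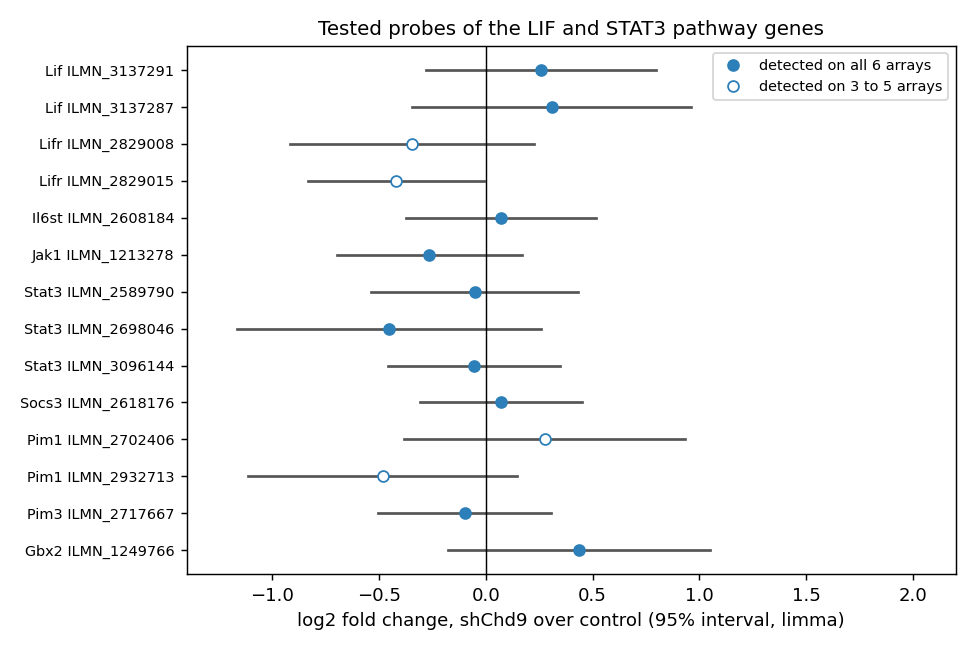
Log2 fold change of shChd9 over control for each of the 14 tested probes, with the 95% interval from limma. Filled points mark probes detected on all 6 arrays and open points those detected on fewer. The interval of Lifr probe ILMN_2829015 ends at -0.01, and those of the other probes include 0.

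Socs3, the inhibitor that Stat3 induces to dampen its own activation, had the smallest SE of the 14 probes and no call. Its probe ILMN_2618176 measured 10.66, 10.88 and 10.52 in shChd9 cells, against 10.74, 10.67 and 10.44 in control cells. The highest value and the second lowest were both from shChd9 cells, and the groups overlapped. The log2 fold change was 0.07 ± 0.17, or 1.05-fold with an interval of 0.81 to 1.37 (limma, adjusted p = 0.982). STAT dimers bind palindromes of the form TTCNNNGAA, and Socs3 was the 1 gene of the 9 with such a match in the 250 bases before a RefSeq start. The motif reads the same on both strands, so each match is counted once. Of the 11 RefSeq windows of the 9 genes 1 holds a match, against 7.02% of all 32851 RefSeq windows of this length. The Socs3 window is shown because Socs3 is the set's best known direct Stat3 target. It lies at chr11:117969367-117969616 on the minus strand (GRCm38.p6, RefSeq), runs 5′ to 3′ towards the start, and has the match in capitals, with its first base 154 before the start.
Socs3: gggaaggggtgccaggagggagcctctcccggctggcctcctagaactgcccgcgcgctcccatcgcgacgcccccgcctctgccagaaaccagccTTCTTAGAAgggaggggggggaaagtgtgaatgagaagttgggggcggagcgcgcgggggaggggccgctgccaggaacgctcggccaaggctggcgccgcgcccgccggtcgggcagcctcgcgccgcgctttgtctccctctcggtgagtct
The match is a description of these letters and was not tested for binding.

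The other targets in the set, Pim1, Pim3 and Gbx2, gave no call either. Pim3, a serine-threonine kinase that supports self-renewal of mouse stem cells, measured 11.03, 11.39 and 11.17 in shChd9 cells, against 11.07, 11.51 and 11.31 in control cells. The groups overlapped, and the change was -0.10 ± 0.18 (limma, adjusted p = 0.975), or 0.93-fold with an interval of 0.71 to 1.24. Pim1, its close relative, was near background and its 2 probes had opposite signs. ILMN_2702406 measured 5.21, 5.89 and 5.47 in shChd9 cells, against 5.69, 5.46 and 4.60 in control cells, a change of 0.28 ± 0.29. ILMN_2932713 measured 4.80, 4.41 and 5.20 in shChd9 cells, against 5.77, 5.30 and 4.78 in control cells, a change of -0.48 ± 0.28. Neither passed (limma, adjusted p = 0.951 and 0.925), and with signs opposed no direction is given for Pim1.

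Gbx2, a homeobox factor that can sustain self-renewal when overexpressed, had the highest log2 fold change of the 14 tested probes, with no call. It measured 12.06, 11.88 and 11.31 in shChd9 cells, against 11.65, 11.53 and 10.78 in control cells. The third array was the lowest in both groups, and the groups overlapped through the third shChd9 array. The change was 0.43 ± 0.27, or 1.35-fold with an interval of 0.88 to 2.07 (limma, adjusted p = 0.930). With 1 array left out it ran from 0.17 to 0.65. Both groups fell from the first to the third array, so leaving out 1 array also unbalances them along that order.

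Across the 6 arrays the levels of Lif and Pim3 correlated with those of feeder fibroblast genes, in opposite directions. The correlation was computed for the 14 tested member probes alone. The share of all probes that would pass it is not known, so neither gene is shown to stand out. The mean level of the 18 feeder markers was 9.20, 8.07 and 8.56 on the shChd9 arrays, against 8.73, 7.74 and 8.26 on the control arrays. In both groups the first array had the highest mean and the second the lowest. Single markers did not all share this order: in both groups Acta2 was highest on the second array and Thy1 on the third. Each of the 18 had a positive log2 fold change and 0 passed over all genes (limma), while the groups overlapped in their mean (exact permutation test, two-sided, p = 0.50). Their median change was 0.38, and with 1 array left out it ran from 0.14 to 0.60. Their summed intensity ranged from 10545 to 18676 in shChd9 and from 8481 to 13865 in control cells, and 1 of the 24 markers was detected on no array. Lif probe ILMN_3137287 put the 6 arrays in the same order as the feeder mean. Its Pearson r was 0.962 (exact permutation p = 0.00417, two-sided, adjusted p = 0.0194 over the 14 probes correlated) and its Spearman rho 1 (exact permutation p = 0.00278, adjusted p = 0.0194). Probe ILMN_3137291 gave r = 0.945 (exact permutation p = 0.00278, adjusted p = 0.0194) and rho = 0.943 (exact permutation p = 0.0167, adjusted p = 0.0778). The exact test of each correlation treats the 6 arrays as exchangeable. They come from 2 groups with the same order of the feeder mean, so the p-values of the correlations may be too small.

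Pim3 put the arrays in exactly the reverse order, with r = -0.973 (exact permutation p = 0.00278, adjusted p = 0.0194) and rho = -1 (exact permutation p = 0.00278, adjusted p = 0.0194). Jak1 also ran against the feeder mean, with r = -0.848, and did not pass (exact permutation p = 0.0403, adjusted p = 0.141), nor did its rho of -0.714 (exact permutation p = 0.136, adjusted p = 0.476). Without the 2 arrays farthest from the median feeder mean, the first shChd9 and the second control array, r was 0.905 and 0.818 for the Lif probes, -0.999 for Pim3 and -0.546 for Jak1, over 4 arrays on which an exact test cannot go below 0.0833. With the group means subtracted from both measures, a choice made after seeing the data, r was 0.956 and 0.935 for Lif and -0.977 for Pim3. Under median scaling Pim3 did not pass, with r = -0.572 (exact permutation test, adjusted p = 0.700), while Lif gave 0.974 and 0.956 (adjusted p = 0.0486 for each). The 6 points hold both groups, and 3 arrays are too few for a value within a group. For Lifr, Il6st, Stat3, Socs3, Pim1 and Gbx2, r lay between -0.436 and 0.433, with adjusted p of at least 0.865 (exact permutation test). These values also depend on the arrays used. Pim1 probe ILMN_2932713 went from 0.120 to 0.985 without the first shChd9 and the second control array (exact permutation p = 0.0833).

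**Figure D3:**
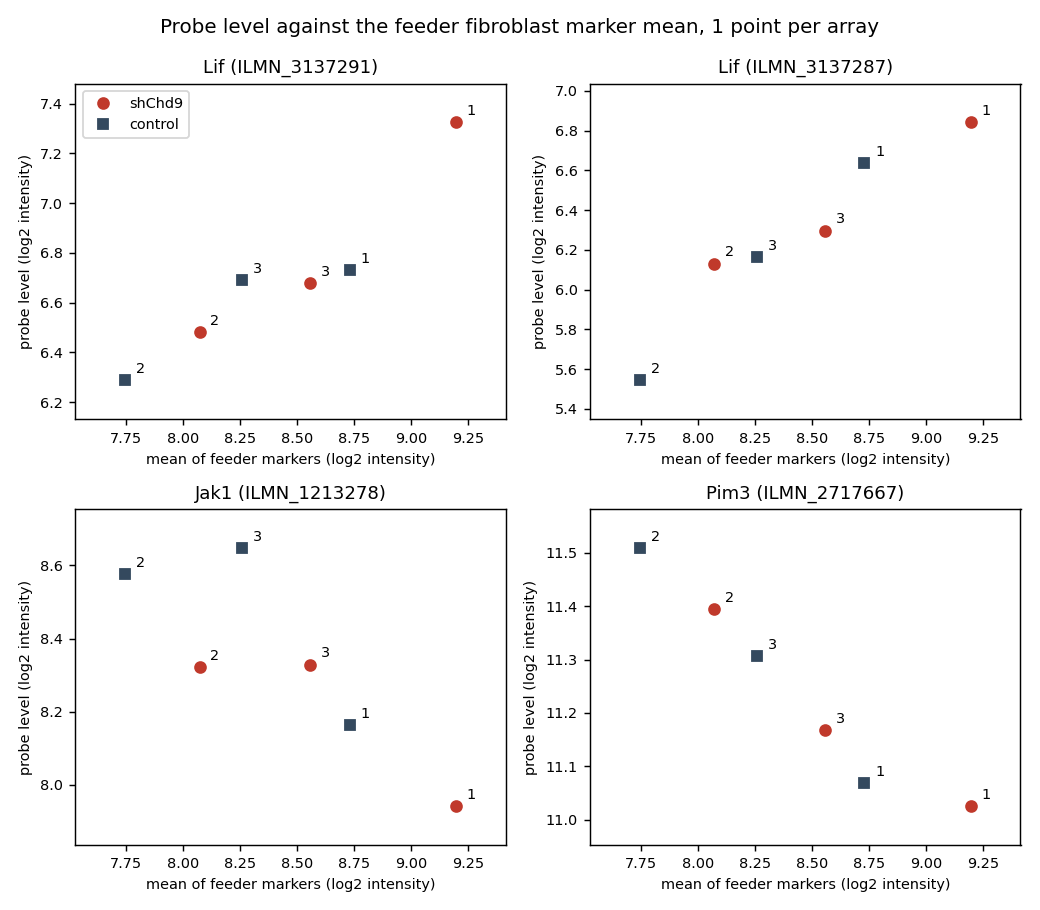
Level of both tested Lif probes, of Jak1 and of Pim3 against the mean of 18 feeder fibroblast markers, both in log2 intensity, with 1 point per array, red circles for shChd9 and dark squares for control and the replicate numbers as names. Lif is highest and Pim3 lowest on the first shChd9 array, which has the highest feeder mean of 9.20, and the reverse holds on the second control array at 7.74.

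With the feeder mean as a covariate, the change between shChd9 and control was 0.03 and -0.0010 for the Lif probes, -0.13 for Jak1, 0.04 for Pim3 and 0.38 for Gbx2. It was -0.28 and -0.39 for the Lifr probes and -0.04 for Stat3 probe ILMN_3096144. Other changes grew in size, to -0.16 for Stat3 ILMN_2589790, -0.57 for Stat3 ILMN_2698046 and 0.12 for Il6st. Socs3 grew to 0.09 and the Pim1 probes to 0.37 and -0.62. None was called, with a lowest adjusted p of 0.910 (limma). The stem cell markers averaged 10.91, 11.09 and 10.81 on the shChd9 arrays, against 10.97, 11.21 and 10.91 on the control arrays, with 5 of 10 positive. Of 6 primitive endoderm markers 4 were tested and all 4 were positive, with a median change of 0.33, which was 0.12 without the first shChd9 array and 0.13 with the feeder covariate. Of 6 trophectoderm markers 3 were tested and 2 were positive, with a median of 0.59. That was 0.23 without the first shChd9 array, 0.32 without the third control array and -0.02 without the filter on detection. Of 6 leukocyte markers 1 was tested, Cd14, at a change of 0.19, which turned to -0.22 without the first shChd9 array and to -0.17 without the third control array. The part of these cells in the values above was not tested.

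Of all 10193 other genes tested, those with a level most like that of Lif over the 6 arrays were Srpx2, Eif4e3 and Slc10a3, with Pearson r of 0.995, 0.993 and 0.992. For Socs3 they were Pou5f1, the core pluripotency factor also known as Oct4, with 0.992, then Hnrnpa2b1 with 0.984 and Rab10 with 0.978. Pou5f1 measured 12.18, 12.36 and 12.02 on the shChd9 arrays and 12.24, 12.15 and 11.89 on the control arrays. The r values are descriptions over 6 arrays that share their normalization, and 265 genes exceeded 0.9 with Lif and 77 with Socs3.

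The rest of the pathway showed the same absence of calls. Ligands and receptors of the IL-6 family, which signal through the same gp130 subunit or close relatives, had 8 of 14 listed genes tested, 6 positive and 2 negative, with a median change of 0.11, against -0.0045 for all 10194 genes tested. Over the 4 of them detected on all 6 arrays the median was 0.33, and over the 8 without the first shChd9 array it was -0.07. By adjusted p under 0.05, limma called 0 of them and 0 of all genes (0%), and by unadjusted p 0 of the 8, against 5.42% of all genes. Ctf1, the cytokine cardiotrophin-1, measured 0.27 ± 0.18 and the receptor Il27ra -0.25 ± 0.20 (limma, adjusted p = 0.917 and 0.928). Osmr, the oncostatin M receptor that pairs with gp130 and was singled out after its values were seen, measured 7.56, 6.05 and 6.68 in shChd9 cells, against 7.03, 5.86 and 6.25 in control cells. It was highest and lowest on the same arrays as Lif.

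Other kinases, STATs and adaptors had 10 of 14 genes tested, 6 positive and 4 negative, with a median of 0.03. Stat4 measured -0.27 ± 0.17 and the adaptor Shc1 0.23 ± 0.15 (limma, adjusted p = 0.917 each). Negative regulators of the pathway had 13 of 14 tested, 7 positive and 6 negative, with a median of 0.01. By unadjusted p under 0.05, limma found 1 of the 13, against 5.42% of all genes tested. That gene was Ptpn6, a phosphatase known from blood cells to act on cytokine receptors. It measured 8.31, 7.99 and 7.86 in shChd9 cells, against 8.42, 8.84 and 8.30 in control cells, or -0.47 ± 0.20 (limma, adjusted p = 0.897), and the groups overlapped through 1 array of each.

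Further Stat3 targets known from stem cells had 14 of 15 genes tested, 10 positive and 4 negative, with 0 calls (limma) and a median of 0.11, which was 0.04 without the first shChd9 or the third control array. Zfp36, which destabilises mRNAs of cytokines and other proteins, measured 9.04, 8.22 and 8.62 in shChd9 cells, against 8.46, 7.91 and 8.06 in control cells, or 0.48 ± 0.24 (limma, adjusted p = 0.917). The naive pluripotency factor Klf4 measured 0.24 ± 0.17 (limma, adjusted p = 0.924). The targets Klf5 and Tfcp2l1, both factors of naive pluripotency, measured 0.01 ± 0.22 and 0.11 ± 0.18. Acute-phase targets, which Stat3 is known to drive in liver, had 7 of 10 tested, 5 positive and 2 negative. Their median was 0.24, and -0.18 without the first shChd9 array. Fgg, a fibrinogen chain, measured -0.56 ± 0.26 and Timp1, an inhibitor of matrix proteases, 0.42 ± 0.23 (limma, adjusted p = 0.917 each). Fgg was near the detection limit, at 4.85, 4.84 and 4.27 in shChd9 cells, where 2 arrays detected it. In control cells it measured 5.01, 4.89 and 5.74. Saa3, a serum amyloid, measured 12.02, 6.37 and 9.38 in shChd9 cells, against 11.17, 6.19 and 8.74 in control cells, so that its spread within a group far exceeded the difference between groups.

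**Figure D4:**
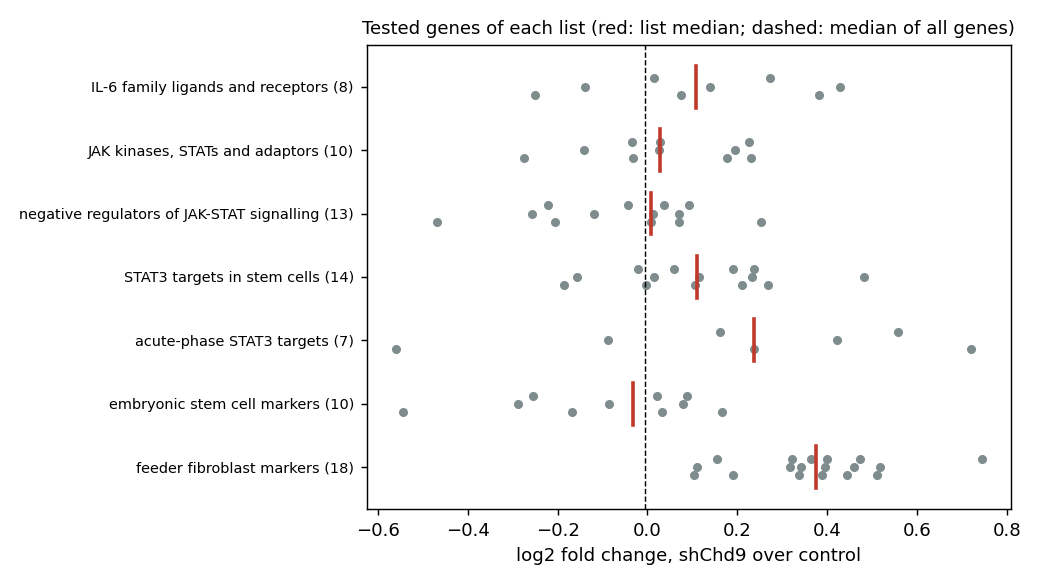
Log2 fold change of shChd9 over control for the tested genes of each list, whose number stands in parentheses, with the list median as a red line and the median of all genes as a dashed line. The pathway lists lie on both sides of 0, with medians from 0.01 to 0.24, and all 18 feeder fibroblast markers lie above 0.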

How the data were processed

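The authors' deposited table gives an average bead intensity and a detection p-value per probe on each of 6 arrays, per the file headers. The deposited intensity values are linear and not normalized between arrays. Per the submitters' processing notes GenomeStudio was used, and no version is given there. A second deposited table holds linear intensities that differ by at most 1.06 from the quantile-normalized raw values, with column medians of 111.377, 111.385 and 111.368 for shChd9 and 111.400, 111.389 and 111.397 for control. It served as an alternative, and no scale, centring or direction in it stayed unknown.

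Gene names came from GEO's platform annotation, checked through Entrez identifiers against RefSeq (GRCm38.p6): 34885 probes had 1 symbol, 18 several and 10378 none. Intensities were processed in R 4.3.3 with limma 3.58.1 (neqc, offset 16, quantile normalization, log2). Probes detected on at least 3 arrays were tested, 17719 in all, and each of 10194 genes was represented by its brightest tested probe. Groups came from the transfection label and limma (lmFit, then eBayes) gave two-sided p-values, adjusted by Benjamini-Hochberg across every probe or gene tested. The fit was tested on simulated data with independent noise on each array and no order shared by the groups. That checked its estimates, signs and false calls, and not its power to find a change in these data. Precision is limited by 3 arrays per group.

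All member probes were named, and from each pathway list the genes with an unadjusted p under 0.05, otherwise the 2 with the smallest p. Osmr, Saa3, Klf5 and Tfcp2l1 were added after their values were seen. The members and lists were chosen with earlier results of these data known. Alternatives covered background correction, normalization, the deposited normalized table, the detection filter, array weights, the feeder covariate, the probes of a gene and each array left out.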

Additional observations from a re-analysis of the deposited data

How the results depend on the processing

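No alternative gave a member probe an adjusted p under 0.05 over 14 settings, the lowest being 0.648. For 4 probes of Lifr and Pim1, not detected on all 6 arrays, 13 settings gave a value. In every setting that gave one, 7 of the 14 tested probes kept the sign of their change. Under median scaling Stat3 probes ILMN_2589790 and ILMN_3096144 turned to 0.0010 and 0.0031, and with the feeder covariate Lif probe ILMN_3137287 turned to -0.0010 and Pim3 to 0.038. With 1 array left out, changes ran from -0.23 to 0.087 for Stat3 ILMN_2589790, -0.18 to 0.016 for Stat3 ILMN_3096144, -0.087 to 0.18 for Il6st, -0.025 to 0.15 for Socs3, -0.052 to 0.49 for Pim1 ILMN_2702406 and -0.21 to 0.0087 for Pim3, and without a change of sign from -0.56 to -0.31 for Lifr ILMN_2829015 and -0.74 to -0.24 for Pim1 ILMN_2932713. Correlations with the feeder mean turned under median scaling to 0.189 for Il6st, 0.170 for Stat3 ILMN_3096144, 0.184 for Socs3 and 0.017 for Pim1 ILMN_2702406. Without the 2 farthest arrays they turned to 0.661 for Lifr ILMN_2829015, 0.852 for Stat3 ILMN_3096144, 0.120 for Pim1 ILMN_2702406 and -0.0048 for Gbx2. The cause was not tested. No paired analysis was run, because the labels give no replicate numbers and tie no shChd9 sample to a control sample. The feeder mean had the same order over the arrays in both groups, 9.20, 8.07 and 8.56 against 8.73, 7.74 and 8.26. The unpaired fit counts differences between arrays that both groups share as scatter, which widens the SE. The absence of calls holds for that fit, and a paired fit was not tested. Leaving out 1 array also unbalances groups that share such an order. Signal over background limits Lifr, Pim1 and 7 member probes that could not be tested.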
